A study of Mus musculus with 6 samples.

Results

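The miRNAs described here are the 83 of 1364 miRNAs in the deposited count table that carry a label from novel_128 to novel_657 in place of a miRBase name. They were chosen by name alone, as every miRNA whose label does not begin with mmu-, and they are called predicted miRNAs because the authors predicted them from reads that matched no known miRNA. The other 1281 are mouse miRNAs named in miRBase, the public registry of miRNAs. Small RNA was sequenced from the nucleus accumbens (NAc) of adult male C57BL/6N mice aged 7 to 8 weeks that went through conditioned place preference (CPP), a procedure in which a drug is paired with one of the compartments of a box. The saline group received saline, and the morphine group received 10 mg/kg morphine with saline in the other daily session, on days 1 to 6, and all mice were tested on day 7 before the tissue was taken. Each group had 3 libraries. The series record gives 6 mice per group, which makes 2 mice per library, while a figure legend of the study names 1 mouse per library. The whole NAc was used, with core and shell together.

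A miRNA is cut from a hairpin in a longer transcript by DROSHA and DICER, and the mature strand is loaded into an Argonaute protein, where its seed pairs with sites in messenger RNAs. Prediction programs look for this signature in sequencing reads: a stack of short reads of one length on a genomic stretch that can fold into a hairpin. Such candidates are often rare or restricted to few cells, and the same signature can also come from fragments of other RNAs, so a label of this kind marks a candidate. Sequences and genomic positions of the 83 were not used here, so hairpins, seeds, targets and host genes are not described.

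Library totals ranged from 4183333 to 9842050 counts, and a count of 0 in a library allows a level of up to 0.315 to 0.549 CPM (the count divided by the library size and put on a common scale) after TMM scaling, which evens out differences in composition between libraries. These limits cover counting error only. Saline replicate 2 stood apart from the other saline libraries for the predicted miRNAs, and not for these alone. Without it 37% of all miRNAs met the study's criteria, against 19.4% with all 6 libraries. Results that turn on it are given with and without it. Saline replicate 2 was singled out from these same values, so p-values of fits without it are no separate support. Cell-type markers were checked over whole lists, with levels as summed CPM after TMM scaling. Neuronal markers, 4 of 4 in the table, summed to 127617 to 272039 CPM with saline and 177125 to 205454 CPM with morphine. Among them miR-124-3p was called lower in the morphine group (log2 fold change -1.88; edgeR, adjusted p = 0.0195). The values were -0.15 for miR-9-5p, 0.47 for miR-128-3p and -0.32 for miR-138-5p, which were not called. Oligodendrocyte markers (2 of 2) summed to 1809 to 1901 and 1571 to 1959 CPM, and muscle markers (3 of 3) to 72.4 to 970.3 and 444 to 554 CPM. Of the muscle markers, miR-206-3p was called lower (log2 fold change -2.06), against 0.32 for miR-1a-3p and 0.27 for miR-133a-3p. For 4 lists the sums did not overlap between the groups, and in each of them 1 member was called by the study's criteria while at least 1 other had a log2 fold change of the opposite sign. Endothelial markers (2 of 2) summed to 1485 to 5002 CPM in saline and 10984 to 16264 CPM in morphine libraries, markers of microglia and blood leukocytes (4 of 4) to 155 to 272 and 854 to 1069 CPM, and erythrocyte markers (3 of 3) to 208 to 311 and 358 to 571 CPM. Markers of ependyma and choroid plexus (3 of 3) summed to 1945 to 2766 CPM in saline and 939 to 991 CPM in morphine libraries. In these 4 lists the called members included miR-126a-3p (log2 fold change 2.42, against -0.96 for miR-126a-5p). For miR-146a-5p it was 2.29, against -0.39 for miR-142a-3p, -0.67 for miR-142a-5p and 0.41 for miR-223-3p. The remaining called members were miR-451a (1.57, against -1.31 for miR-144-3p and -0.20 for miR-486a-5p) and miR-204-5p (-1.50, against 0.69 for miR-449a-5p and -0.29 for miR-34c-5p). The lists therefore did not move as wholes. The 1 defining marker at 0 in any library was miR-144-3p, of the erythrocyte list, in morphine replicate 2. The part of these marker differences in the group differences of the predicted miRNAs was not tested. In tissue, fewer cells of a type and less RNA per cell cannot be told apart.

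The predicted miRNAs were a very small part of each library. They held 2013 counts over the 6 libraries, or 0.00453% of all counts. The saline libraries held 353, 156 and 569 counts in replicates 1, 2 and 3, and the morphine libraries held 288, 323 and 324. As shares of the library total these were 0.00844% (95% exact binomial interval 0.00758 to 0.00937%), 0.00187% (0.00159 to 0.00219%) and 0.00789% (0.00725 to 0.00857%) in the saline group. In the morphine group they were 0.00293% (0.00260 to 0.00328%), 0.00443% (0.00396 to 0.00494%) and 0.00428% (0.00383 to 0.00478%). Saline replicates 1 and 3 were above every morphine library and saline replicate 2 was below every one, so the groups overlapped. The saline mean was 0.00607% ± 0.00364 (SD, n = 3) and the morphine mean 0.00388% ± 0.000829 (SD, n = 3), a difference within the spread between replicates (exact two-sided permutation test, p = 0.4; 3 libraries against 3 allow no p below 0.1). Without saline replicate 2 the saline mean was 0.00816% and the difference went from -0.00219 to -0.00428 percentage points. Without saline replicate 1 the difference was -0.00100, and without saline replicate 3 it was -0.00127. After TMM scaling the saline libraries summed to 49.2 ± 22.5 CPM (SD, n = 3) and the morphine libraries to 43.4 ± 10.1 CPM (SD, n = 3; exact permutation p = 0.6).

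Most predicted miRNAs had only a few counts. The median total over the 6 libraries was 7 counts, from 1 to 527, against a median of 41 for the miRBase miRNAs. A total of at least 10 counts was reached by 33 of the 83 (39.8%), compared with 866 of 1281 miRBase miRNAs (67.6%), and a total of at least 100 by 4 (4.82%), compared with 540 (42.2%). At most 3 counts in every library were seen for 39 predicted miRNAs (47.0%) and 361 miRBase miRNAs (28.2%). The abundance filter of edgeR (filterByExpr) passed 4 of the 83, novel_147, novel_363, novel_128 and novel_460, and 590 of the 1281. The leading miRNA, novel_147, held 26.2% of all predicted counts, the leading 5 held 59.2% and the leading 10 held 69.8%. The number in a label ran loosely against abundance: the 41 lowest numbers had a median total of 10 counts and the 42 highest a median of 6 (Spearman's rho -0.228 across 83 miRNAs, which are not independent replicates).

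Few predicted miRNAs were counted in every library. Over the 83, 18 were counted in 1 library, 16 in 2, 14 in 3, 15 in 4, 11 in 5 and 9 in all 6. The 9 were novel_128, novel_147, novel_324, novel_325, novel_363, novel_392, novel_420, novel_460 and novel_498. This is 10.8% of the predicted miRNAs, compared with 666 of the 1281 miRBase miRNAs (52.0%). The comparison is not matched for total count, which had a median of 7 for predicted and 41 for miRBase miRNAs. Of the 18 seen in a single library, 5 were in a saline library and 13 in a morphine library, with 6 in morphine replicate 1, the most deeply sequenced library, and 0 in saline replicate 2.

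**Figure D1:**
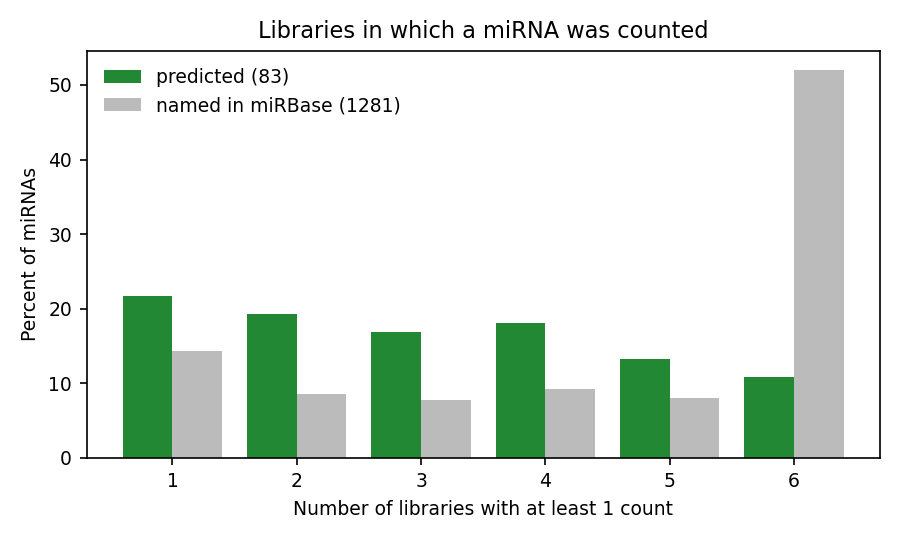
Percent of miRNAs (vertical axis) by the number of libraries with at least 1 count (horizontal axis), for 83 predicted miRNAs (green) and 1281 miRNAs named in miRBase (grey). The predicted miRNAs spread from 21.7% in 1 library to 10.8% in all 6, while 52.0% of the miRBase miRNAs were counted in all 6. The predicted and miRBase miRNAs are not matched for total count.

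The number of predicted miRNAs detected with at least 1 count was 36, 31 and 48 in saline replicates 1, 2 and 3 and 52, 48 and 46 in the morphine replicates. Saline replicate 3 lay within the morphine range and the other saline libraries lay below it. The means were 38.3 ± 8.74 (SD, n = 3) and 48.7 ± 3.06 (SD, n = 3), a difference of 10.3 that was not larger than the spread (exact permutation p = 0.3). Without saline replicate 2 the difference was 6.67, and without saline replicate 3 it was 15.2. With at least 3 counts required, the numbers were 18, 11 and 31 in the saline group and 25, 28 and 31 in the morphine group, and with at least 10 counts they were 6, 3 and 9 against 6, 7 and 5, a difference of 0. Because detection rises with depth, every library was also thinned at random to 4183333 counts. The median numbers detected over 100 draws were then 36, 23 and 43 with saline and 37, 40 and 40 with morphine, and the difference of means was 5.37. Saline replicate 2 had the fewest both ways, although its total of 8335096 counts was the highest of the saline group.

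**Figure D2:**
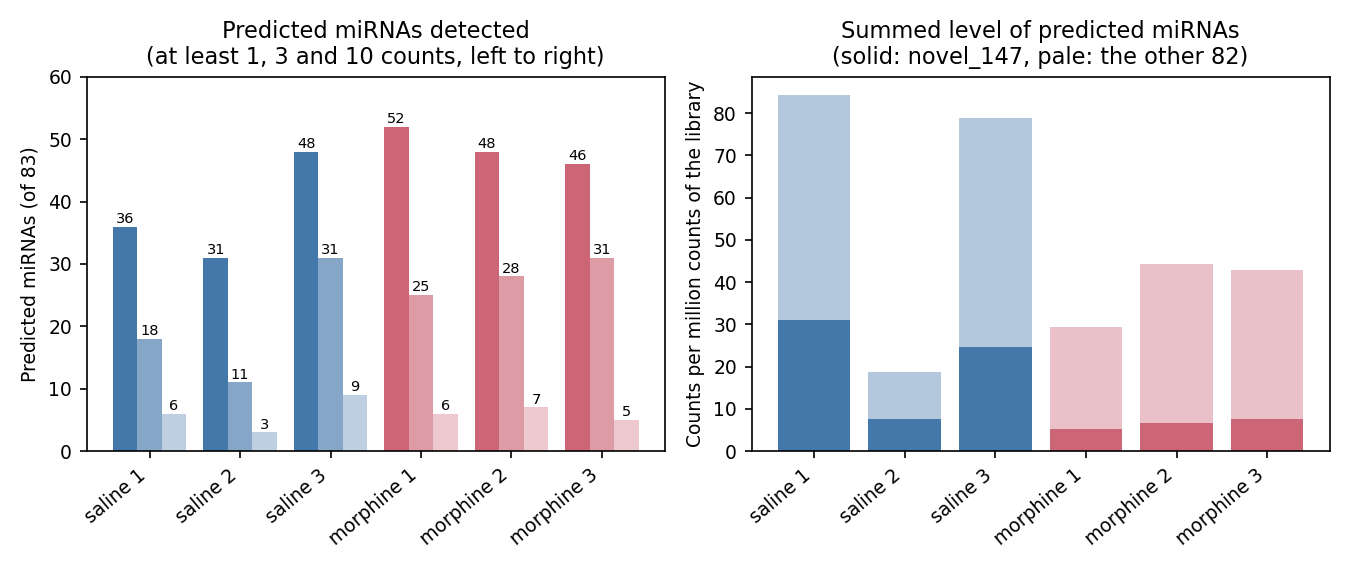
Left, number of predicted miRNAs (of 83) with at least 1, 3 and 10 counts in each library, saline in blue and morphine in red; right, their summed level in CPM of the library total, with novel_147 solid and the other 82 pale. Saline replicate 2 has the fewest detected (31) and the lowest sum, and the solid part is a smaller share of the bar in the morphine libraries.

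Some predicted miRNAs were counted in the libraries of one group only. Of the 83, 23 (27.7%) had counts only in morphine libraries, 8 (9.64%) only in saline libraries and 52 (62.7%) in both. Of the 1281 miRBase miRNAs, 123 (9.60%) had counts only in morphine libraries and 144 (11.2%) only in saline libraries. Among miRNAs with a total of 1 to 9 counts, 19 of 50 predicted miRNAs (38%) and 116 of 415 miRBase miRNAs (28.0%) were in morphine libraries only, and 8 (16%) and 139 (33.5%) were in saline libraries only. Between 10 and 99 counts, 4 of 29 predicted (13.8%) and 6 of 326 miRBase miRNAs (1.84%) were in morphine libraries only. After thinning to 4183333 counts the median was 24 only in morphine libraries (18 to 29 over 100 draws) and 12 only in saline libraries (8 to 17). Leaving out 1 library at a time gave 17 to 32 only in morphine libraries and 4 to 15 only in saline libraries. By definition, leaving out a saline library cannot lower the number only in morphine libraries, and leaving out a morphine library cannot raise it. The lowest number only in morphine libraries, 17, was without morphine replicate 1, which left 15 only in saline libraries. Without saline replicate 2 the number only in morphine libraries was 29. These shares are a description, since the comparison with miRBase miRNAs of equal count has no replicates.

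Over the 33 predicted miRNAs with at least 10 counts, each pair of libraries within a group was more alike than any pair between the groups. Spearman's rho of log2(CPM + 1) was 0.506 to 0.659 for the 3 pairs of saline libraries and 0.537 to 0.720 for the 3 pairs of morphine libraries. For the 9 pairs between groups it was 0.0494 to 0.475, and the highest was between saline replicate 2 and morphine replicate 1. These values describe the libraries and share the same 33 miRNAs. The filter was on the total over all 6 libraries, so novel_399, novel_417, novel_512 and novel_518 passed it on morphine counts alone. The likeness within groups is therefore no separate support for a group difference.

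The main comparison asked which predicted miRNAs differed between the morphine and the saline group. All 1364 miRNAs were fitted together with the quasi-likelihood test of edgeR, and the study's criteria were applied, which ask for |log2 fold change| ≥ 0.58 together with an unadjusted p ≤ 0.05. Of the 83 predicted miRNAs, 14 (16.9%) were called, against 19.4% of all miRNAs. In the morphine group 10 were upregulated (12.0%, against 9.68% of all) and 4 were downregulated (4.82%, against 9.68% of all). At an adjusted p under 0.05 (Benjamini-Hochberg over all 1364), 1 was called, novel_399, against 5.21% of all miRNAs. The shares called and upregulated were thus near those of the whole table, and the shares downregulated and called at an adjusted p were lower, without a test of the difference. This comparison is not matched for total count. At totals of 1 to 9 counts, 10% of predicted and 3.13% of miRBase miRNAs were called. The shares were 27.6% and 15.0% from 10 to 99 counts, and 25% and 29.4% from 100 to 527. Values that did not overlap were found for 11 predicted miRNAs that were higher in the morphine group (against 12.2% of all miRNAs) and 3 that were lower (against 9.9% of all).

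The split of the 14 calls depended on the scaling. With TMM scaling the median log2 fold change of all miRNAs was -0.15. It was -0.40 with library total scaling and -0.35 with upper quartile scaling, and the split of the predicted miRNAs was then 7 higher and 5 lower under each, against 10 and 4. The median of the predicted miRNAs was 0.53 with TMM, 0.25 with library totals and 0.30 with upper quartiles, with 48, 45 and 45 of the 83 above 0. Over the 33 with at least 10 counts it was 0.24 with TMM scaling, with 18 above 0, against -0.16 for miRBase miRNAs of that count.

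The number called also depended on single libraries. It was 7 without saline replicate 1, 8 without saline replicate 3, 7 without morphine replicate 2 and 7 without morphine replicate 3. Without saline replicate 2 it was 17, of which 9 were higher and 8 lower, in a fit where 37% of all miRNAs were called. In that fit 7 predicted miRNAs passed an adjusted p under 0.05 in edgeR, against 29.1% of all miRNAs. They were novel_399, novel_512 and novel_417, which were higher in the morphine group, and novel_391, novel_147, novel_128 and novel_568, which were lower. Without morphine replicate 1, 0 predicted miRNAs passed the adjusted threshold and 11 met the study's criteria on the unadjusted p.

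**Figure D3:**
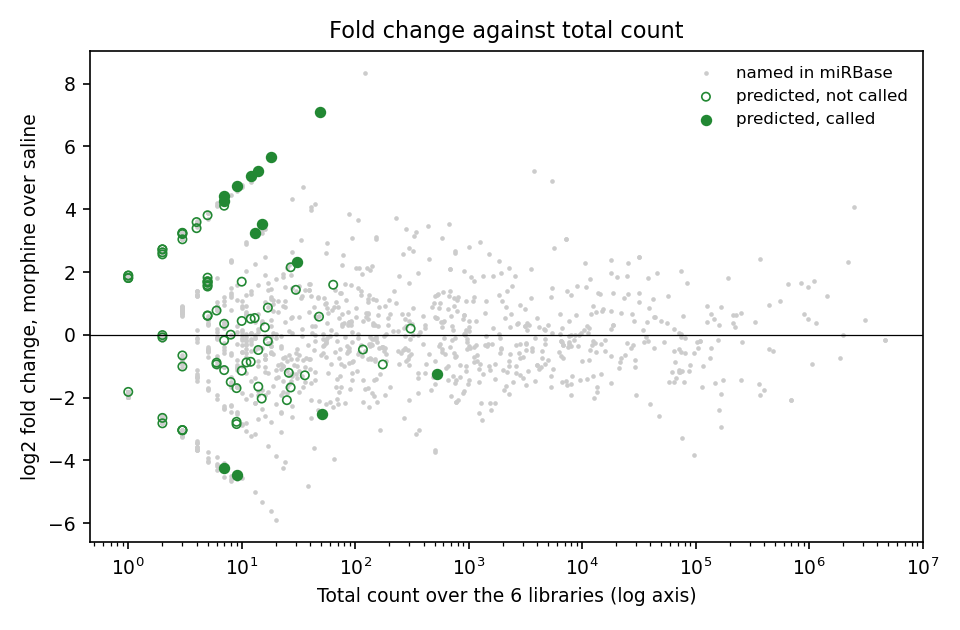
Log2 fold change of morphine over saline (vertical axis) against the total count over the 6 libraries (horizontal log axis) for miRBase miRNAs (grey dots) and predicted miRNAs (green, filled where called by the study's criteria). Most called predicted miRNAs have totals under 100, and the outermost green points are miRNAs absent from one group, whose fitted fold change depends on the prior count of the model.

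The calls rested on low counts. Of the 10 upregulated miRNAs, 7 had no counts in any saline library, and of the 4 downregulated ones, 2 had no counts in any morphine library. For 11 of the 14, no library had more than 10 counts, and 5 of the 14 had totals under 10. Among miRNAs with totals of 1 to 9, 5 of 50 predicted (10%) and 13 of 415 miRBase miRNAs (3.13%) were called. Between 10 and 99 counts, 8 of 29 predicted (27.6%) and 49 of 326 miRBase miRNAs (15.0%) were called. The predicted calls were 7 higher and 1 lower, and the miRBase calls were 23 higher and 26 lower. From 100 to 527 counts, 1 of 4 predicted and 45 of 153 miRBase miRNAs (29.4%) were called.

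Counts of 0 in every saline library with at least 3 counts in every morphine library were found for 5 of the 1364 miRNAs (0.367%), and 3 of the 5 were predicted: novel_399, novel_512 and novel_518. No predicted miRNA, 0 of 83, had the opposite pattern. Its share over all miRNAs was not counted, so the 0 is no contrast to the 3. The saline libraries held 0, 0 and 0 counts of novel_399 and the morphine libraries 13, 12 and 24, which is a morphine mean of 2.32 ± 1.26 CPM (SD, n = 3). The groups did not overlap, and the morphine group was at least 5.30-fold higher when each saline library was set to 3 counts (edgeR, adjusted p = 0.00512). This call was kept by the study's criteria under all 14 alternative settings that tested it (the abundance filter removed it) and under 13 of the 14 at an adjusted p under 0.05. The exception was leaving out morphine replicate 1, with an adjusted p of 0.099 in edgeR, and the adjusted p ranged from 1.98e-06 to 0.099 over the alternatives.

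For novel_512 the counts were 0, 0 and 0 with saline and 3, 9 and 6 with morphine, at least 1.97-fold higher (edgeR, unadjusted p of 0.00373, adjusted p = 0.0531). novel_518 had 0, 0 and 0 against 3, 5 and 4 counts, at least 1.29-fold higher (edgeR, unadjusted p of 0.0114, adjusted p = 0.101). novel_417, which had 0, 0 and 0 against 7, 1 and 6 counts, was at least 1.42-fold higher (edgeR, unadjusted p of 0.00979, adjusted p = 0.094). None of the 9 saline values of these 3 miRNAs was above 0, and the lowest morphine value was 1 count. All 3 kept their call by the study's criteria under the 14 alternatives, and novel_512 passed an adjusted p under 0.05 in 4 of them and novel_417 in 1. Absence from the saline libraries is bounded by depth: the floor of 3 counts corresponds to 0.549 CPM after TMM scaling in saline replicate 1, the shallowest library, and the mean morphine levels of novel_518 and novel_417 were 0.564 and 0.621 CPM on the same scale.

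The remaining miRNAs of this pattern in the table were miR-291a-3p and miR-292a-3p, members of a cluster known for its expression in embryonic stem cells, which were chosen after their values were seen. Their counts were 0 in each saline library, and in morphine replicates 1, 2 and 3 they were 47, 41 and 34 for miR-291a-3p and 5, 6 and 7 for miR-292a-3p. The mature sequence of miR-291a-3p is given because it had the most counts of the 5 miRNAs with this pattern. It is from RefSeq on the plus strand of chromosome 7 of GRCm38.p6, from 3218968 to 3218989, and capitals mark the seed.
miR-291a-3p: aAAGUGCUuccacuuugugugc

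The other 3 upregulated miRNAs absent from the saline libraries had 9 or fewer counts in total. novel_604 had 0, 5 and 4 counts in morphine replicates 1, 2 and 3, and overlapped the saline group at 0 (edgeR, unadjusted p of 0.0288, adjusted p = 0.190). Its morphine mean of 0.454 CPM was below the floor of 0.549 CPM in saline replicate 1, so no lower bound of the fold is given. novel_657 had 3, 2 and 2 counts, with no overlap (edgeR, adjusted p = 0.220). novel_623 had 0, 1 and 6, so that nearly all its counts were in morphine replicate 3 (edgeR, adjusted p = 0.252). Both had too few counts for a fold change. The call of novel_604 was lost without saline replicate 3, morphine replicate 2 or morphine replicate 3 (edgeR, unadjusted p from 0.0591 to 0.0880). That of novel_623 was lost without any 1 of the saline replicates (edgeR, unadjusted p from 0.0687 to 0.0961) or without morphine replicate 3 (p of 0.372). That of novel_657 was lost in each of the 6 fits that left out 1 library (edgeR, unadjusted p from 0.0631 to 0.109). Over all alternative settings, the call was kept in 8 of 13 for novel_604, 5 of 13 for novel_623 and 2 of 13 for novel_657.

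Another 3 upregulated miRNAs had counts in both groups. Counts of novel_498 were 1, 1 and 3 with saline and 9, 9 and 8 with morphine. Every morphine library was above every saline library. The morphine mean, 1.19 ± 0.171 CPM (SD, n = 3), was 5.51-fold above the saline mean, 0.216 ± 0.0871 CPM (SD, n = 3). Its log2 fold change was 2.32 (SE 1.08; edgeR, unadjusted p of 0.0333, adjusted p = 0.207), and the call was lost without saline replicate 1, morphine replicate 2 or morphine replicate 3 (edgeR, unadjusted p from 0.0569 to 0.0965) and with library total or upper quartile scaling. novel_201 had 0, 0 and 1 counts against 1, 7 and 6, a ratio of scaled totals of 13.6 with a 95% counting interval of 2.08 to 577 (edgeR, adjusted p = 0.190). novel_547 had 0, 0 and 1 against 3, 7 and 2, a ratio of 11.7 (1.73 to 499.9; edgeR, adjusted p = 0.246). For both the single saline count was in saline replicate 3, and the scaled values did not overlap, although novel_201 had 1 count in saline replicate 3 and 1 count in morphine replicate 1. The call of novel_201 was lost without saline replicate 1, morphine replicate 2 or morphine replicate 3 (edgeR, unadjusted p from 0.0565 to 0.102). The call of novel_547 was lost without saline replicate 1, saline replicate 2, morphine replicate 2 or morphine replicate 3 (edgeR, unadjusted p from 0.0533 to 0.208). Over all alternative settings, the call was kept in 7 of 14 for novel_498, 8 of 14 for novel_201 and 6 of 14 for novel_547.

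The 4 downregulated miRNAs included the one with the highest mean level over the 6 libraries, although in the morphine group its mean of 7.25 CPM was below the 7.65 CPM of novel_363. The counts of novel_147 were 130, 63 and 177 with saline and 52, 48 and 57 with morphine. Its level was 23.8, 9.45 and 18.6 CPM with saline and 5.75, 7.03 and 8.95 CPM with morphine, so the groups did not overlap, and saline replicate 2 lay closest to the morphine group. The means were 17.3 ± 7.26 CPM (SD, n = 3) and 7.25 ± 1.61 CPM (SD, n = 3), 2.38-fold lower in the morphine group, with a log2 fold change of -1.25 (SE 0.57; edgeR, unadjusted p of 0.0423, adjusted p = 0.242). By mean level it ranked at 387 of the 1364 miRNAs. The call was kept in 7 of 15 alternative settings. Leaving out saline replicate 2 gave a log2 fold change of -1.55 (edgeR, adjusted p = 0.000691). The call was lost without any other single library, with log2 fold changes of -0.86 without saline replicate 1, -1.14 without saline replicate 3, -1.02 without morphine replicate 1, -1.21 without morphine replicate 2 and -1.43 without morphine replicate 3 (edgeR, unadjusted p from 0.0836 to 0.191).

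The share of novel_147 among the predicted counts does not depend on scaling between libraries. It was 36.8%, 40.4% and 31.1% in saline replicates 1, 2 and 3 and 18.1%, 14.9% and 17.6% in the morphine replicates. Saline replicate 2, which was lowest in the summed level, had the highest share. The means were 36.1% ± 4.68 (SD, n = 3) and 16.8% ± 1.73 (SD, n = 3), with no overlap, a difference larger than the spread (exact two-sided permutation test, p = 0.1, the smallest that 3 against 3 allow). A share within these miRNAs shows unequal change between novel_147 and the other 82, not which of them moved. It rests on the counts that made novel_147 the leading predicted miRNA and gave its call, so it is no separate support. The share was not among the planned tests. Without novel_147 the difference in summed share of the library total was -0.000727 percentage points (exact permutation p = 0.6).

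The counts of novel_391 were 18, 2 and 24 with saline and 0, 4 and 3 with morphine. Saline replicates 1 and 3 were above every morphine library, while saline replicate 2, at 0.300 CPM, lay among them. The means were 2.04 ± 1.55 CPM (SD, n = 3) and 0.352 ± 0.311 CPM (SD, n = 3), 5.78-fold lower in the morphine group, with a log2 fold change of -2.54 (SE 1.07; edgeR, unadjusted p of 0.0237, adjusted p = 0.168). Without saline replicate 2 it was -3.08 (edgeR, adjusted p = 0.000198). The call was lost without saline replicate 1 (log2 fold change -1.94; edgeR, unadjusted p of 0.0795) or morphine replicate 1 (-1.82; p of 0.140). It was also lost with a minimum total of 10 counts, 1 miRNA per set of equal counts or the replicate number as a block (edgeR, unadjusted p from 0.0551 to 0.0919). In saline replicates 1, 2 and 3, novel_568 had 1, 0 and 8 counts and novel_302 had 2, 0 and 5, and both had 0 in every morphine library. Both were 0 in saline replicate 2, so the groups overlapped, and most counts of each were in saline replicate 3 (edgeR, adjusted p = 0.220 for novel_568 and adjusted p = 0.252 for novel_302). The call of novel_568 was lost without saline replicate 3 (edgeR, unadjusted p of 0.349) or without any 1 of the morphine replicates (p from 0.0677 to 0.118). That of novel_302 was lost without saline replicate 1 (edgeR, unadjusted p of 0.0890), saline replicate 3 (p of 0.189) or any 1 of the morphine replicates (p from 0.0916 to 0.123). Over all alternative settings, the call was kept in 5 of 13 for novel_568 and 4 of 13 for novel_302.

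**Figure D4:**
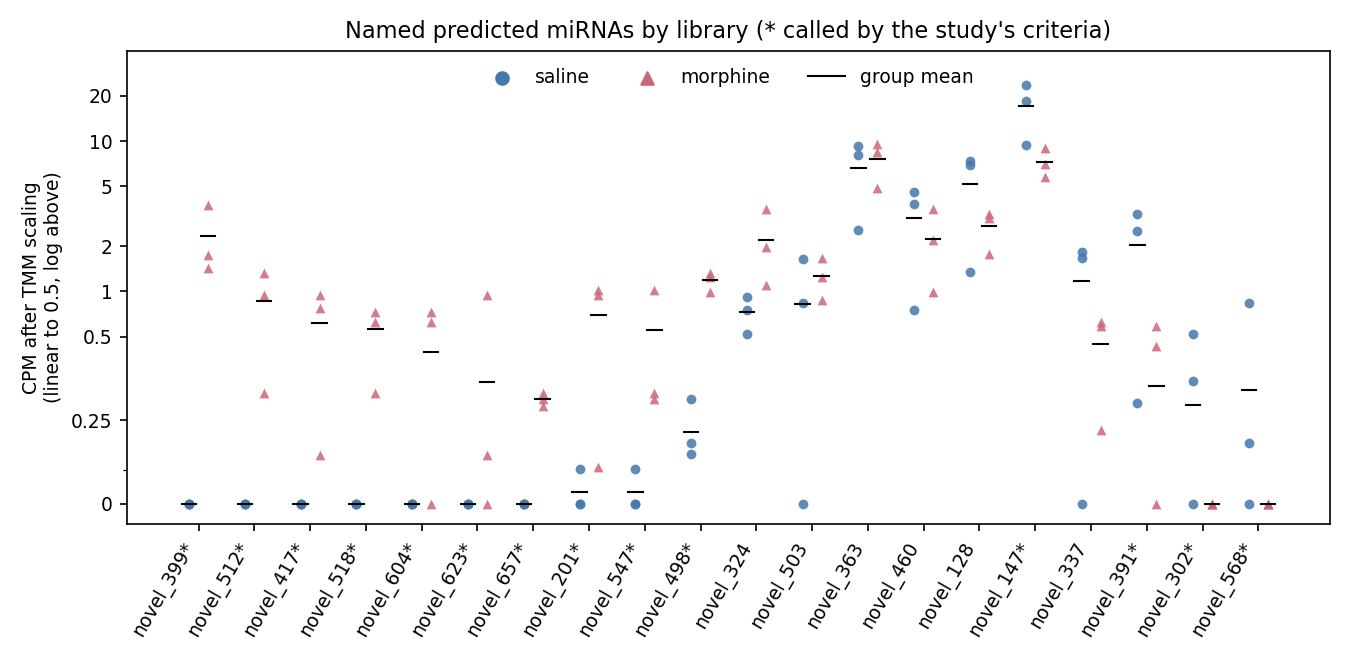
Level of 20 named predicted miRNAs in each library in CPM after TMM scaling (vertical axis, linear to 0.5 and log above), with saline as blue circles, morphine as red triangles, group means as bars and an asterisk for miRNAs called by the study's criteria. From novel_399 to novel_657 all saline circles lie at 0, and for novel_391, novel_337, novel_128, novel_460 and novel_363 saline replicate 2 is the lowest circle.

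Among the 10 most abundant predicted miRNAs, 4 were called (novel_147, novel_391, novel_399 and novel_498) and 6 were not. novel_363, the second by level, had counts of 51, 17 and 77 with saline and 44, 58 and 61 with morphine, or 6.65 ± 3.61 and 7.65 ± 2.47 CPM (SD, n = 3). Its groups overlapped, with a log2 fold change of 0.20 (SE 0.63; edgeR, adjusted p = 0.863) that turned to -0.27 with library total scaling, -0.080 with upper quartile scaling and -0.19 without saline replicate 2. novel_128 had 38, 9 and 70 against 16, 21 and 21 counts, or 5.22 ± 3.35 and 2.71 ± 0.826 CPM (SD, n = 3). Its log2 fold change was -0.95 (SE 0.70; edgeR, adjusted p = 0.520), and the groups overlapped through saline replicate 2 alone. Without that library it was -1.41 (edgeR, adjusted p = 0.0126). novel_460 had 21, 5 and 44 against 9, 24 and 14 counts, or 3.07 ± 2.05 and 2.24 ± 1.26 CPM (SD, n = 3), with overlap. The log2 fold change was -0.47 (SE 0.76; edgeR, adjusted p = 0.736), and 0.044 without saline replicate 3.

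The counts of novel_324 were 5, 5 and 5 with saline and 18, 24 and 7 with morphine. Every morphine library was above every saline library, at 2.20 ± 1.22 against 0.730 ± 0.196 CPM (SD, n = 3), and the morphine mean was 3.02-fold higher. Its log2 fold change of 1.60 (SE 0.80; edgeR, unadjusted p of 0.0576, adjusted p = 0.284) missed the study's criteria, and it met them without saline replicate 1 (1.90; edgeR, unadjusted p of 0.0382) or saline replicate 2 (1.66; p of 0.0172). novel_503 had 0, 11 and 8 against 15, 6 and 8 counts, with overlap and a log2 fold change of 0.58 (SE 0.96; edgeR, adjusted p = 0.738), and it was the 1 of these 10 with its highest saline level in saline replicate 2. novel_337 had 10, 0 and 16 against 2, 4 and 4 counts, with overlap and a log2 fold change of -1.29 (SE 1.10; edgeR, adjusted p = 0.537). Without saline replicate 2 it met the study's criteria, at -1.88 (edgeR, unadjusted p of 0.0216). Beyond the named miRNAs, values that did not overlap were seen for 4 miRNAs that were not called, picked after their values were seen. novel_420 (2, 2 and 4 against 7, 7 and 8 counts) and novel_508 (0, 2 and 3 against 5, 10 and 7) were higher in every morphine library, and novel_485 (2, 2 and 3 against 1, 1 and 0) and novel_619 (3, 3 and 2 against 1, 0 and 0) were lower.

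**Figure D5:**
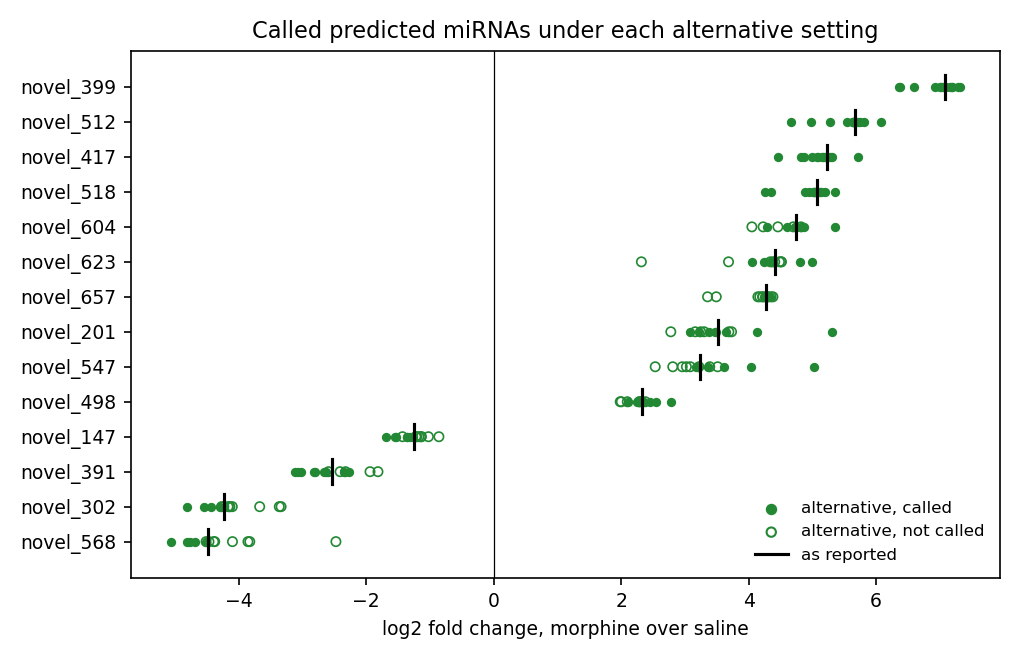
Log2 fold change of morphine over saline for the 14 called predicted miRNAs (horizontal axis) as reported (black bar) and under each alternative setting, filled where the call by the study's criteria was kept and open where it was lost. novel_399, novel_512, novel_417 and novel_518 are filled throughout, while novel_657 kept its call in 2 of 13 settings and novel_147 in 7 of 15.

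The miRBase miRNA whose level ran most parallel to each of the 10 most abundant predicted miRNAs was sought among the 454 with at least 10 counts in every library, as the one with the smallest SD of the difference in log2(CPM + 1) over the 6 libraries. It was miR-8112 for novel_147 (SD 0.19), miR-139-5p for novel_363 (SD 0.16), miR-383-5p for novel_128 (SD 0.13) and miR-6940-3p for novel_460 (SD 0.15). It was miR-155-5p for novel_324 (SD 0.32), miR-764-5p for novel_391 (SD 0.13) and miR-344d-3-5p for novel_399 (SD 0.27). It was miR-378c for novel_503 (SD 0.17), miR-877-5p for novel_337 (SD 0.12) and miR-6540-3p for novel_498 (SD 0.10). With the best of 454 candidates picked over 6 libraries, and a pseudocount of 1 that flattens low levels, these SDs describe likeness on that scale only. Fold changes could differ within a pair. The log2 fold change was 2.32 for novel_498 and 1.03 for miR-6540-3p, and 7.09 for novel_399 and 1.71 for miR-344d-3-5p. For novel_460 and miR-6940-3p it was -0.47 and -0.48.

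Predicted lists can hold the same sequence more than once, which would show as repeated counts. With a total of at least 10 counts, 0 of the 33 predicted miRNAs had the same 6 counts as another predicted miRNA or as a miRBase miRNA, while 14 of 866 miRBase miRNAs (1.62%) repeated each other, in 7 sets. With any total, 9 predicted miRNAs fell into 4 sets of equal counts, and none of these sets had a total above 3. The set of 3 was novel_274, novel_306 and novel_650, each with 3 counts in saline replicate 3 and 0 elsewhere. Below 10 counts, 23 predicted miRNAs had the counts of some miRBase miRNA, at totals where equal counts are common. Near-identical counts, within a ratio of 0.9 in every library, could be looked for in the 2 predicted miRNAs with at least 10 counts in every library, novel_147 and novel_363, and 0 pairs were found.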

How the data were processed

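Small RNA libraries from 3 μg of total RNA per sample, 3 per group, were sequenced on an Illumina HiSeq instrument. Per the study's methods, the authors removed reads with adapter, poly-N or low quality and reads outside a length range, used Bowtie to drop reads of ribosomal, transfer and other non-coding RNAs or of repeats, matched the rest to miRBase and predicted further miRNAs, folding them with Randfold. The authors deposited raw read counts per miRNA. The TPM values the authors deposited beside them equal each count divided by its library total on a common scale and were not tested. The prediction program, its score limit, the genome build and the miRBase release are not given in the sources used here, and 0 columns of the table were left out. Which reads count towards a predicted miRNA depends on these settings.

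Counts of all 1364 miRNAs entered 1 fit in edgeR 4.0.16 (R 4.3.3) with TMM scaling and its quasi-likelihood F test, morphine against saline, without covariates. TMM factors were 0.80 to 1.32, and the common biological coefficient of variation was 0.59. Levels are CPM after TMM scaling. Where a group was at 0, its libraries were set to 3 counts each. A fold printed from these is a lower bound that leaves out counting error in the other group. Named were predicted miRNAs called at an adjusted p under 0.05 or by the study's criteria, the 10 with the highest mean CPM, those at 0 in one group with at least 3 counts in every library of the other, and members of identical sets. The members, lists and tests were chosen with earlier results of these data known. The labels do not tie libraries to separate animals, so p-values measure the spread between these libraries. In data simulated for this comparison, 200 miRNAs drawn from those with at least 10 counts in total had a log2 fold change of 3. The study's criteria recovered 87.5% of them, and an adjusted p under 0.05 recovered 78%, with 13 false calls. These rates do not describe the 50 predicted miRNAs with totals under 10. Without change, 4.95% of 1292 miRNAs had p of at most 0.05. Alternatives were other scalings, DESeq2 1.42.0, count filters, thinning, 1 miRNA per set of equal counts, the replicate number as a block, and leaving out each library. The count of miRNAs seen only in morphine libraries and its alternatives were added after seeing the data.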

Additional observations from a re-analysis of the deposited data

How the results depend on the processing

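The count of 14 predicted miRNAs called by the study's criteria was 12 or 13 under the other scalings and 14 with a log2 fold change of at least 1. It was 7 with DESeq2 (5 higher and 2 lower), 9 when only the 33 miRNAs with at least 10 counts were tested, 9 after thinning to the smallest library and 1 of the 4 that pass filterByExpr. It was 11, all higher, with 1 miRNA kept per set of equal counts, which left 60 predicted miRNAs, and 7 to 17 when 1 library was left out. The 1 call at an adjusted p under 0.05 became 3 with library total scaling, 3 with upper quartile scaling, 2 with DESeq2 and 0 of the 4 tested with filterByExpr, a filter that removes novel_399, and it was 0 to 7 when 1 library was left out. For other changes in these counts the cause was not tested. Libraries with the same replicate number did not deviate together (correlations of -0.23, -0.28 and 0.14 over 899 miRNAs), so the numbers were not taken as pairs. With the replicate number as a block, 4 were called by the study's criteria and 1, novel_399, at an adjusted p under 0.05.

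The difference in the number detected was 0 at a minimum of 10 counts, and 9 miRNAs shared their counts with another predicted miRNA at a minimum of 1 count. Among named miRNAs the direction turned for novel_363, at -0.27 with library total scaling, -0.080 with upper quartile scaling and -0.19 to 0.61 when 1 library was left out, and for novel_460, at -0.95 to 0.044 when 1 library was left out. All other named miRNAs kept their direction under the alternatives run, and of the alternative values of named miRNAs 75 lost a call, 6 gained one and 194 stayed on the same side of the criteria. The summed share kept its sign and missed p under 0.05 in every alternative, although with 3 libraries against 3 no smaller p than 0.1 was possible. Depth limits these results: a count of 0 allows 0.315 to 0.549 CPM after TMM scaling, and 50 of the 83 had totals under 10, where the 5 calls were all of miRNAs at 0 in one group.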
